A study of Homo sapiens with 6 samples.

Results

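The mitochondrial ribosomal protein genes were examined in OVCAR-3 cells with and without stable knockdown of COX-1, the cyclooxygenase encoded by PTGS1. They were taken by name, as every row of the count table whose symbol is MRPL or MRPS followed by a number and at most a letter from A to C. This gave 77 of 34811 rows, which carry 76 symbols because MRPL46 is listed under 2 gene identifiers. Of these rows 75 passed the filter on low counts and were tested, 29 of the small subunit (MRPS) and 46 of the large subunit (MRPL).

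OVCAR-3 is an established human ovarian carcinoma line. OV3/COX1KD cells carry a pRS HuSH-29 plasmid expressing an shRNA against COX-1, OV3/SCR cells carry the same plasmid with a scrambled shRNA, and both were selected with puromycin. Each condition was 1 clone, OV3/COX1KD clone #2 and OV3/SCR clone #1, sampled as 3 independent passages and sequenced as 3 libraries. The comparison asks how gene expression differs between COX-1 proficient and COX-1 deficient cells, but an effect of the knockdown and a difference between these clones cannot be told apart, and p-values measure the spread between passages only.

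Mitochondria have ribosomes of their own, which translate the few proteins encoded by mitochondrial DNA, all of them subunits of the respiratory chain and the ATP synthase. The ribosomal RNAs come from mitochondrial DNA, whereas every protein of the particle is encoded in the nucleus, made in the cytosol and imported. Some of these proteins descend from bacterial ribosomal proteins and others exist only in mitochondria, where they replace lost RNA, line the exit tunnel or tie the ribosome to the inner membrane.

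The libraries held 25291505 to 27391538 reads counted on genes, and TMM factors were 1.02 to 1.04 in OV3/SCR and 0.97 to 0.98 in OV3/COX1KD. At this depth 3 counts, taken as the floor, were 0.112 to 0.12 CPM, counts normalised to library size, a limit that covers counting error only. PTGS1, the target of the shRNA, had 713, 658 and 641 counts in OV3/SCR and 456, 486 and 501 in OV3/COX1KD, a log2 fold change of -0.45 (SE 0.057, edgeR FDR 1.3e-06). All 10 markers of ovarian epithelium were above the floor in every library, and their summed level was 5757 to 5825 CPM in OV3/SCR and 7494 to 7689 CPM in OV3/COX1KD. Of these, 8 were called higher and 2 lower, with the largest rise in MUC16 (log2 fold change 1.36) and the largest fall in PAX8 (log2 fold change -0.76). The 9 stromal, endothelial and blood markers found summed to 12.9 to 13.5 CPM and 8.59 to 9.57 CPM. Most of this was COL1A1, at 9.93 to 10.3 CPM and 5.36 to 6.38 CPM, and each of the other markers was at 0 to 1.95 CPM in every library. The part of these shifts in the members' results was not tested. In bulk RNA, fewer cells of a kind and less RNA per cell cannot be told apart.

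Mitochondrial ribosomal protein genes changed in both directions and by small amounts. By edgeR's quasi-likelihood test, 38 of the 75 genes tested were called at an FDR under 0.01, 27 higher and 11 lower in OV3/COX1KD. That is 50.7% of them, beside 47.9% of the 17309 genes tested over the whole table, where 25.8% were called higher and 22.1% lower, a share near the background. Among genes of at least 4 on the mean log2 CPM scale, 52.2% of 67 members were called, beside 63.6% of 8584 genes. The split depended on the scaling of the libraries. With total counts in place of TMM, 15 members were called higher and 17 lower, so that 46.9% of the calls were rises where TMM gave 71.1%. Over all genes tested the rises fell too, from 4473 of 8293 calls with TMM to 3466 of 8444 with total counts. No called member changed sign in any setting tried, and 23 of the 38, namely 15 higher and 8 lower, were called in all 14 other settings.

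The log2 fold changes of the members ran from -0.77 to 0.40 with a median of 0.080 and quartiles of -0.070 and 0.19. Over all genes tested the median was -0.0087 and the quartiles were -0.30 and 0.26. No member had a log2 fold change above 0.5 with edgeR at any p, nor with DESeq2, and 9.87% of all genes tested were called above that size. Below -0.5 there was 1 called member, MRPL38, where the background was 10.0%, or 19.9% for either direction. The fold change of 2.5 that the study used for changed genes was passed by 3.92% of all genes tested and, with either tool, by no member. Summed over the members, 0.497%, 0.479% and 0.490% of all counts fell on the family in OV3/SCR and 0.483%, 0.486% and 0.488% in OV3/COX1KD, ranges that overlap. On library sizes scaled by TMM, as used for the fold changes, the sums were 0.480%, 0.468% and 0.478% against 0.498%, 0.497% and 0.501%, higher in each knockdown library.

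**Figure D1:**
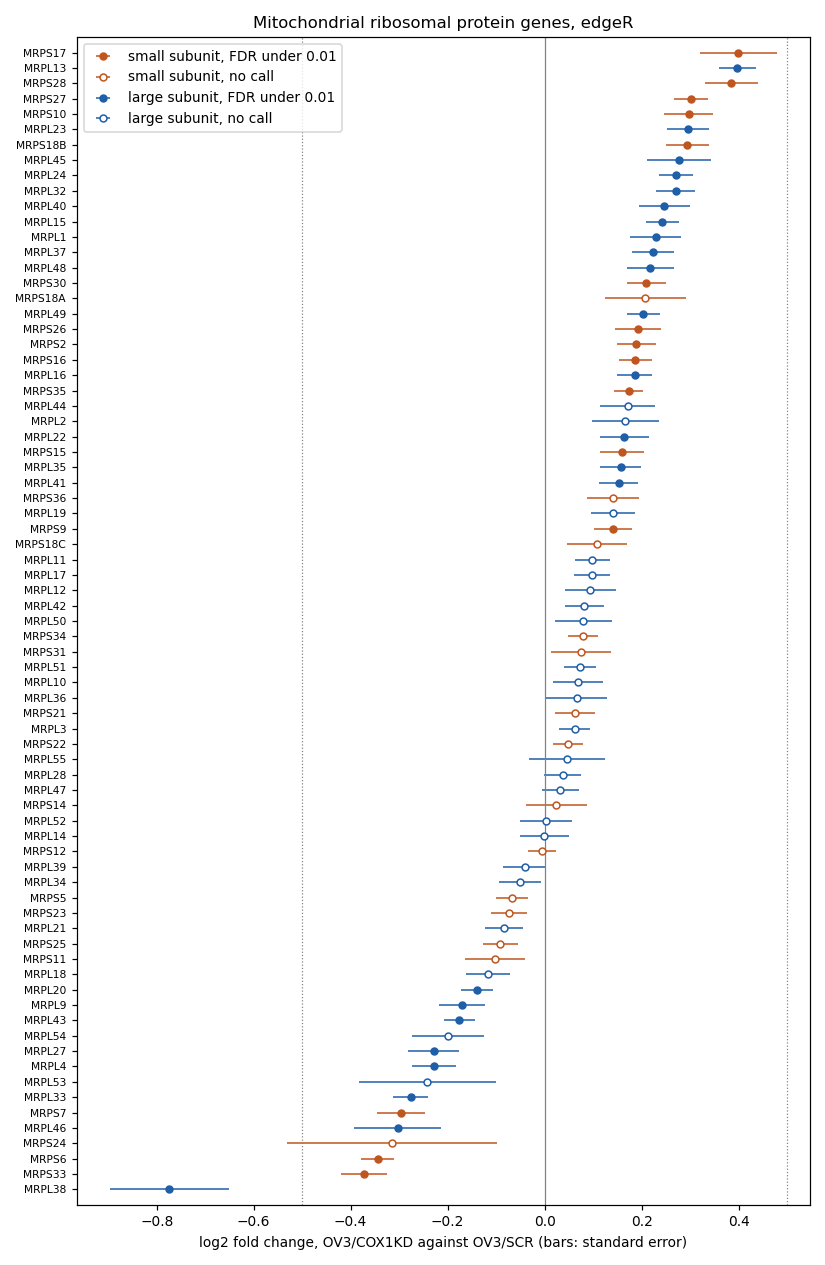
Log2 fold change of OV3/COX1KD against OV3/SCR (horizontal axis, edgeR, bars are standard errors) for the 75 mitochondrial ribosomal protein genes tested, ordered by value; filled points were called at an FDR under 0.01 and dotted lines mark -0.5 and 0.5. The values form a continuous series from -0.77 to 0.40 in which both subunits are spread over rises and falls, and MRPL38 alone lies beyond a dotted line.

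Replicates were tight. The coefficient of variation of a member over the 3 libraries of a condition had a median of 3.63% in OV3/SCR and 2.97% in OV3/COX1KD. The 2 conditions did not overlap in 36 members that were higher and 16 that were lower in OV3/COX1KD, while 32.5% and 30.6% of all genes tested were so separated, 63.1% in all.

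The small subunit reads the messenger RNA. Of its 29 genes tested, 12 were called higher, 3 lower and 14 neither, with a median log2 fold change of 0.11. That is 51.7% called, near the 47.9% of all genes tested. With total counts 7 were higher and 6 lower (median 0.029), and with offsets for GC content and gene length 10 and 6 (median 0.061).

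MRPS17, a protein with a bacterial relative that sits on the small-subunit ribosomal RNA, lies at chr7:56019570-56024193 on the plus strand (GRCh37, the build of hg19). It had 239, 250 and 277 counts in OV3/SCR replicates 1, 2 and 3 and 327, 322 and 340 in OV3/COX1KD. All knockdown libraries exceeded all control libraries, and the normalised level was 9.74 ± 0.885 CPM (SD, n = 3) in OV3/SCR and 12.9 ± 0.117 CPM (SD, n = 3) in OV3/COX1KD. Its log2 fold change of 0.40 (SE 0.079, edgeR FDR 0.00023) was the largest rise among the members. In the annotation 29.4% of the exon bases of its main transcript are shared with other counted genes on the same strand, among them 3.02% with NIPSNAP2, which itself had a log2 fold change of 0.97.

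MRPS28, MRPS27 and MRPS10 came next. MRPS28 had 788, 711 and 778 counts in OV3/SCR and 923, 907 and 1082 in OV3/COX1KD, without overlap. The log2 fold change was 0.39 (SE 0.055, edgeR FDR 6.3e-06). MRPS27, a pentatricopeptide repeat protein that exists only in mitochondria, had 2294, 2320 and 2364 counts against 2820, 2673 and 2927. All 3 knockdown libraries were again higher, at a log2 fold change of 0.30 (SE 0.036, edgeR FDR 4.8e-07). MRPS10, whose bacterial relative lies in the head of the small subunit, had 999, 881 and 883 counts against 1094, 1029 and 1199, and a log2 fold change of 0.30 (SE 0.051, edgeR FDR 5.2e-05).

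Called falls in the small subunit numbered 3. MRPS33, a mitochondria-specific protein (chr7:140702410-140715028, minus strand), had 1103, 1150 and 1156 counts in OV3/SCR and 866, 808 and 902 in OV3/COX1KD. The conditions were far apart, at 43.3 ± 1.78 CPM and 33.5 ± 1.13 CPM (SD, n = 3 each). The log2 fold change was -0.37 (SE 0.048, edgeR FDR 1.4e-06). MRPS6, which has a bacterial relative (chr21:35445524-35515334, plus strand), had 2771, 2732 and 2686 counts against 2040, 2112 and 2159, and a log2 fold change of -0.34 (SE 0.034, edgeR FDR 4.0e-08). MRPS7, a primary binder of the ribosomal RNA of the small-subunit head (chr17:73257755-73262457, plus strand), had 1024, 991 and 989 counts against 825, 783 and 785. None of its libraries overlapped between conditions, and its log2 fold change was -0.30 (SE 0.049, edgeR FDR 3.4e-05).

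**Figure D2:**
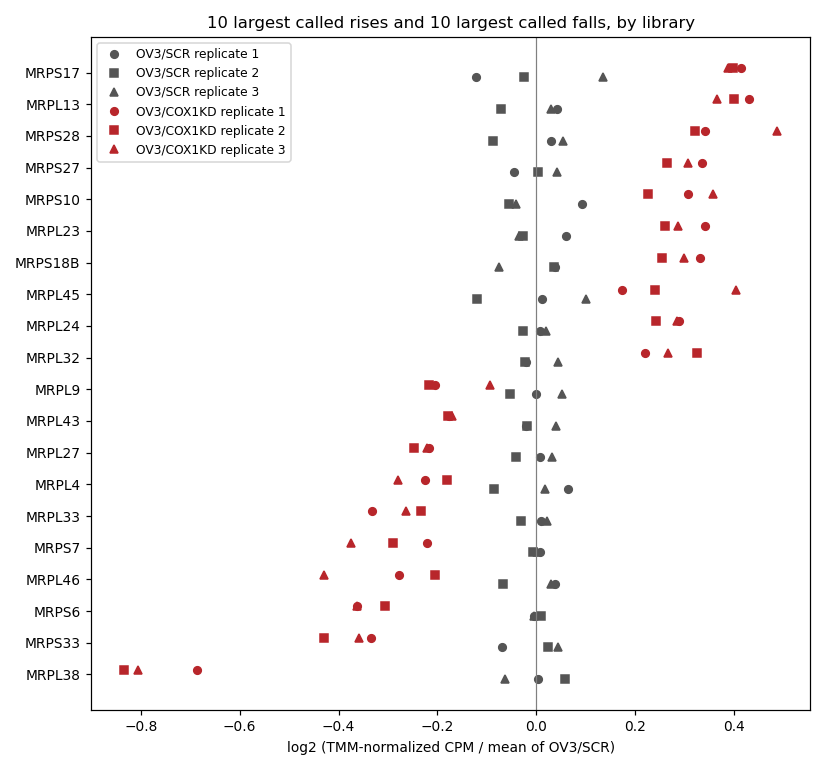
TMM-normalised CPM of each library relative to the mean of the OV3/SCR libraries (horizontal axis, log2 scale) for the 10 largest rises and 10 largest falls among called members; grey symbols are OV3/SCR and red symbols OV3/COX1KD, with 1 shape per replicate number. In each gene the red symbols lie on 1 side of all grey symbols, and the gap is widest in MRPL38.

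MRPS18A, MRPS18B and MRPS18C are paralogs, each related to 1 and the same bacterial ribosomal protein, and they occupy different places in the mitochondrial ribosome. Structural work puts MRPS18A, like MRPS30, in the large subunit, although both are counted here with the small subunit by symbol. MRPS18B had 1131, 1103 and 1013 counts in OV3/SCR and 1307, 1235 and 1353 in OV3/COX1KD. It rose by a log2 fold change of 0.29 (SE 0.045, edgeR FDR 1.3e-05). MRPS18A had 257, 286 and 235 counts against 279, 303 and 297, with a log2 fold change of 0.21 that did not pass the test (SE 0.084, edgeR FDR 0.041). MRPS18C had 504, 437 and 451 counts against 475, 480 and 512, with a log2 fold change of 0.11 (SE 0.062, edgeR FDR 0.15). After normalisation the conditions did not overlap in MRPS18A. The differences between the 3 paralogs were not tested, and the standard error of MRPS18A is nearly as large as the gap between its value and that of MRPS18B.

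The start regions of the paralogs, together with those of the largest fall, MRPL38, and of MRPS10, are printed to show how unlike the paralogs are around their starts and where 3 motifs lie that are known from nuclear genes for mitochondrial proteins. Each runs 5′ to 3′ on the strand of the gene, from 250 bases before the RefSeq start to 50 bases after it, and was placed on GRCh37 by a unique exact match. Capitals mark matches, on either strand, to the ETS motif CCGGAAG, bound by GABP, or to the YY1 motif AANATGGCG.
MRPS18A, chr6:43655479-43655778, minus strand: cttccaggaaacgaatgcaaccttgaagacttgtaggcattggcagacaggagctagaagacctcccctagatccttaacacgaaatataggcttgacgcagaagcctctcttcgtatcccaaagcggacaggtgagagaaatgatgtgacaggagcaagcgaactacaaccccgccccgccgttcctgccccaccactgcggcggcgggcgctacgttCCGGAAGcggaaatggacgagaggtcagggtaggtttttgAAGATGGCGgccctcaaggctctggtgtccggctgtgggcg
MRPS18B, chr6:30585367-30585666, plus strand: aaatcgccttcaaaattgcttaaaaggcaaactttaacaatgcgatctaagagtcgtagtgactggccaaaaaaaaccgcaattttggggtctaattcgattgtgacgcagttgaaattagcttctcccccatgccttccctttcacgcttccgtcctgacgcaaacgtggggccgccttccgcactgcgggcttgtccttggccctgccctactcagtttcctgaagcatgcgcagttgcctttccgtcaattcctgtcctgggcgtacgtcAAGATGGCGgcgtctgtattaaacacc
MRPS18C, chr4:84376961-84377260, plus strand: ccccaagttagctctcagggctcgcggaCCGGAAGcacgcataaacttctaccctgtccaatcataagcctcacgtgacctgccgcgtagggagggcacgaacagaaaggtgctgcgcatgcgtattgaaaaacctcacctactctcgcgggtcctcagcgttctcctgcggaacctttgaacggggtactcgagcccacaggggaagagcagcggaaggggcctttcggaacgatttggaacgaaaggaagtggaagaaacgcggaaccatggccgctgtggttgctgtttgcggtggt
MRPL38, chr17:73900916-73901215, minus strand: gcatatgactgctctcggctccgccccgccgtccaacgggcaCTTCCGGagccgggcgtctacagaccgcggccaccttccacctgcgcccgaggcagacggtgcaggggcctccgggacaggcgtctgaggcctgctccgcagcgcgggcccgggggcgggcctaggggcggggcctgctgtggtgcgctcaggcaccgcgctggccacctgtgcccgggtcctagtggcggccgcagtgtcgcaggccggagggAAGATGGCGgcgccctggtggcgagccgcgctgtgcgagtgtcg
MRPS10, chr6:42185550-42185849, minus strand: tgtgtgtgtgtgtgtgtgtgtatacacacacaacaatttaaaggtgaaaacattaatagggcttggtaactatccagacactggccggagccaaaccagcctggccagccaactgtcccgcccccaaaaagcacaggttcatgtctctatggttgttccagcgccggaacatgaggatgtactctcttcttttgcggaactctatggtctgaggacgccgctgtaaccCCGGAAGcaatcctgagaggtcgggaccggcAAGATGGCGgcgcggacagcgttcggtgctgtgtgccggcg

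Counting the first transcribed base as position 0, the YY1 motif began at position 9 in MRPS18A, 23 in MRPS18B, 6 in MRPL38 and 9 in MRPS10, and it had no match in MRPS18C. The ETS motif began at -31 in MRPS18A, -222 in MRPS18C, -208 in MRPL38 and -22 in MRPS10, and it had no match in MRPS18B. The YY1 letters thus lie just inside the transcript in genes that rose (MRPS18B, MRPS10), in one that fell (MRPL38) and in one that was not called (MRPS18A).

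Over the family, RefSeq windows were found for 67 of the 76 symbols, 83 windows in all because some genes have several starts. The YY1 motif was in 21.7% of the members' windows and in 5.53% of the 14877 windows of genes tested. The ETS motif was in 38.6% beside 15.4%, and the NRF1 motif, spelled GCGC and TGCGC with 1 base of any kind between them, in 10.8% beside 9.07%. At least 1 of the 3 was in 61.4% beside 26.3%. Of 20 matches to the YY1 motif in members, 17 began within 50 bases of the start and 16 of these after it. In the windows of all genes tested, 601 of 846 YY1 matches (71.04%) began within 50 bases and 500 began after the start. A place near the start was thus common for this motif outside the family as well. For the ETS motif 30 of 43 matches began within 50 bases, beside 1437 of 2796 (51.39%) in all genes tested. For the NRF1 motif it was 2 of 10 beside 686 of 1633. The differences in position were not tested. The motif matches are matches of letters and not shown to be bound sites.

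Windows were found for 22 of the 27 members called higher and for all 11 called lower. Called rises without a window included MRPL13, MRPS28, MRPL23 and MRPL15. By call, the YY1 motif was in 8 of 22 symbols called higher, 3 of 11 called lower and 7 of 33 with no call. The ETS motif was in 6, 6 and 16 of them. Any of the 3 was in 14, 8 and 24. No test of these counts was made.

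The large subunit joins the amino acids and holds the exit tunnel. Of its 46 genes tested, 15 were called higher, 8 lower and 23 neither, with a median log2 fold change of 0.076. That is 50% called, near the 47.9% of all genes tested. The median turned to -0.0018 with total counts, where 8 were higher and 11 lower.

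MRPL13, which has a bacterial relative and lies on chromosome 8, had 2055, 1858 and 1976 counts in OV3/SCR and 2540, 2476 and 2571 in OV3/COX1KD. The groups were well separated, at 74.8 ± 3.17 CPM and 98.6 ± 2.21 CPM (SD, n = 3 each). The log2 fold change was 0.40 (SE 0.038, edgeR FDR 2.6e-08). MRPL23 had 1151, 1060 and 1046 counts against 1321, 1244 and 1346. MRPL24 had 1871, 1785 and 1828 against 2143, 2068 and 2265. MRPL45, the mitochondria-specific protein that anchors the tunnel exit at the inner membrane, had 613, 547 and 632 against 647, 675 and 804. In MRPL23, MRPL24 and MRPL45 the knockdown libraries had the higher normalised levels. The log2 fold changes were 0.30 (SE 0.044), 0.27 (SE 0.036) and 0.28 (SE 0.067). The call of MRPL45 (edgeR FDR 0.0014) was lost with total counts (edgeR FDR 0.014), without OV3/SCR replicate 2 (edgeR FDR 0.018) and without OV3/COX1KD replicate 3 (edgeR FDR 0.015). MRPL32, a target of the mitochondrial m-AAA protease, had 1554, 1517 and 1576 counts against 1733, 1856 and 1894 and rose by a log2 fold change of 0.27 (SE 0.040, edgeR FDR 8.7e-06).

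MRPL38, a mitochondria-specific protein of the central protuberance (ENSG00000204316, chr17:73894725-73901174, minus strand), gave the largest change of the family. It had 135, 137 and 125 counts in OV3/SCR and 79, 71 and 77 in OV3/COX1KD. The lowest OV3/SCR library was far above the highest OV3/COX1KD library, and the level fell from 5.05 ± 0.211 CPM to 2.95 ± 0.163 CPM (SD, n = 3 each), which is 58.5% of control. The log2 fold change was -0.77 (SE 0.12, edgeR FDR 2.0e-05), and it lay between -0.85 and -0.74 over all settings tried. The count is low for this family. In the annotation 94.3% of the exon bases of MRPL38 also belong to another gene entry on the same strand, ENSG00000267426, which had 0 to 2 counts in each library. Reads that fall on exons of 2 genes can be left uncounted by HTSeq, depending on its mode, which is not given in the sources used here. Whether these counts stand for the whole transcript was not tested.

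The other falls of the large subunit were smaller. MRPL33, a very short protein with a bacterial relative (chr2:27994584-28210954, plus strand), had 2647, 2517 and 2589 counts in OV3/SCR and 1972, 2103 and 2189 in OV3/COX1KD, a log2 fold change of -0.28 (SE 0.036, edgeR FDR 2.0e-06). MRPL4, which reaches into the exit tunnel, had 1608, 1416 and 1510 counts against 1242, 1276 and 1265. MRPL27, which lies by the site of peptide bond formation, had 682, 645 and 673 against 551, 537 and 582. Both fell without overlap of the conditions, each with a log2 fold change of -0.23 (SE 0.046 and 0.053). MRPL43 had 3528, 3452 and 3567 counts against 2987, 2972 and 3176, and MRPL9 had 1224, 1153 and 1230 against 1002, 989 and 1146. Their log2 fold changes were -0.18 (SE 0.032) and -0.17 (SE 0.047). The call of MRPL9 (edgeR FDR 0.0042) was lost in 5 settings, among them DESeq2 (adjusted p 0.012) and leaving out replicate 1 or 3 of OV3/SCR (edgeR FDR 0.017 and 0.039) or replicate 1 of OV3/COX1KD (edgeR FDR 0.025).

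MRPL46 appears in 2 rows. The row ENSG00000259494 (chr15:89002708-89010621, minus strand) had 253, 230 and 244 counts in OV3/SCR and 192, 201 and 183 in OV3/COX1KD, a log2 fold change of -0.30 (SE 0.089, edgeR FDR 0.0065). This call was weak, since leaving out any 1 library other than OV3/COX1KD replicate 2 lost it, with an edgeR FDR of 0.010 to 0.042. The row ENSG00000173867 runs on across the neighbouring gene DET1. It had 9, 8 and 9 counts against 7, 6 and 9 and did not pass the filter. MRPL46 starts head to head with MRPS11, and their windows (chr15:89010570-89010869 and chr15:89010689-89010988) share 181 bases. MRPS11 had a log2 fold change of -0.10 that did not pass the test (edgeR FDR 0.16).

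In the control cells, levels were widely spread. They are given as TPM (transcripts scaled for length and library size, computed here from the counts), which rests on the annotated length of the main transcript. The 73 tested members with a known length ranged from 5.05 to 515 TPM in OV3/SCR. Their median was 74.2, beside 10.4 for all genes tested. MRPL42, with an annotated length of 15557 bases, stood at 6.73 TPM although it had 1348, 1264 and 1303 counts. How much of the spread comes from the annotated lengths was not tested. Although the proteins are parts of 1 particle, the upper quartile was 3.45 times the lower one. MRPS12, a protein of the decoding site, stood at 515 ± 8.35 TPM (SD, n = 3). MRPS34 stood at 499.9 ± 24.9 and MRPL3 at 423 ± 18.2 (SD, n = 3). MRPS12 and MRPS34 do not differ beyond their spread. None of these 3 was called between conditions. MRPS12 had 6272, 6097 and 6089 counts in OV3/SCR and 5991, 5838 and 6147 in OV3/COX1KD, a log2 fold change of -0.0064 (SE 0.029) whose sign turned in 3 settings. MRPS34, which shares 32.6% of its exon bases with EME2 on the opposite strand (log2 fold change -0.78), had a log2 fold change of 0.079 (SE 0.031, edgeR FDR 0.036) and MRPL3 one of 0.062 (SE 0.031, edgeR FDR 0.10). Both were called once OV3/COX1KD replicate 2 was left out (edgeR FDR 0.0042 and 0.0034), and the sign of MRPL3 turned with total counts and with the offsets for GC content and length. The order of the levels was nearly the same in both conditions, with a rank correlation over these members of 0.988.

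At the other end, MRPL30 had 5, 1 and 1 counts in OV3/SCR and 3, 0 and 2 in OV3/COX1KD. It was the lowest row of the family, at 0.042 TPM, and with the low MRPL46 row it was left untested. MRPS24 was the lowest of those tested, at 5.05 ± 0.637 TPM (SD, n = 3). It had 36, 45 and 45 counts against 35, 38 and 26, and its log2 fold change of -0.31 (SE 0.22, edgeR FDR 0.22) was within its error.

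Rows that share most of their exon bases were low, but not every low row was among them. In 7 of the 75 rows with coordinates at least 50% of the exon bases also belong to another counted gene, and their levels were 0.213 to 24.0 TPM with a median of 14.9. In the 47 rows that share none, levels were 12.2 to 515 with a median of 74.2. In the 21 rows that share some but less than 50%, they were 0.042 to 499.9 with a median of 84.1. The lowest of these was MRPL30, which was not tested and shares 12.7% with entries on the same strand. The 7 rows were MRPL53, MRPL38, MRPS24, MRPS18A, MRPS18C and both MRPL46 rows. They share their exons with CCDC142, ENSG00000267426, URGCP-MRPS24, RSPH9, ABRAXAS1 and, for the MRPL46 rows, each other and DET1. RSPH9 and ABRAXAS1 are on the opposite strand, from which reads cannot be told apart unless strand was used in counting, and ABRAXAS1 had a log2 fold change of 0.78. Of the 7 rows 2 were called, both lower, MRPL38 and the MRPL46 row ENSG00000259494. The MRPL46 row ENSG00000173867 was not tested and could not be called. Of the 47 rows without shared exons 24 were called, and 11 of the 21 sharing less than 50%, beside 47.9% of all genes tested. What sharing exons does to the levels was not tested.

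**Figure D3:**
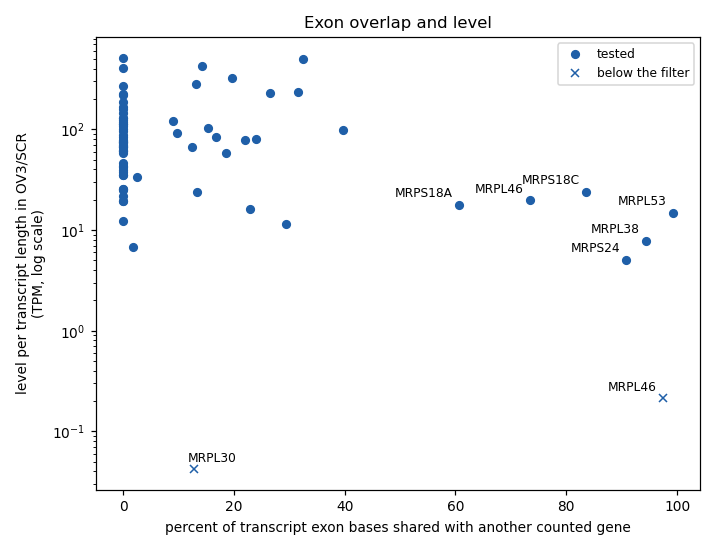
Level per transcript length in OV3/SCR (vertical axis, TPM, log scale) against the percent of exon bases that each member shares with another counted gene (horizontal axis); crosses are the 2 rows below the filter. All rows sharing 50% or more lie at 24.0 TPM or lower, while rows sharing none reach 515 TPM. Rows sharing some but less than 50% run from 0.042 to 499.9 TPM.

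Members were also grouped by descent. Of 47 tested members with a bacterial relative, 17 were called higher and 7 lower (median log2 fold change 0.094), and of 28 mitochondria-specific members, 10 and 4 (median 0.079). That is 51.1% and 50% called, both near the 47.9% of all genes tested. The 37 members with no call had log2 fold changes between -0.31 and 0.21, and 26 of these were within 0.1 of 0. Their standard errors were below 0.1 in 35.

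On chromosome 8 all 3 members were called higher. Beside MRPL13 and MRPS28 this was MRPL15, which had 3580, 3258 and 3422 counts in OV3/SCR and 3848, 3816 and 4219 in OV3/COX1KD, a log2 fold change of 0.24 (SE 0.034, edgeR FDR 5.1e-06). Other genes on that chromosome were higher as well, with a median log2 fold change of 0.16 over 460 genes of at least 1 on the mean log2 CPM scale. Within 1 Mb of MRPS28 the median of 6 genes was 0.40, within 1 Mb of MRPL15 it was 0.25 over 5 genes, and within 1 Mb of MRPL13 it was 0.10 over 6 genes. A change of copy number between the clones was not tested. Over all 73 members with coordinates that were tested, the member and the median of its neighbours correlated weakly (Pearson's r 0.21, Spearman's rho 0.18, across genes, which are not independent and can share neighbours). Member and neighbours had the same sign in 34 and opposite signs in 39.

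**Figure D4:**
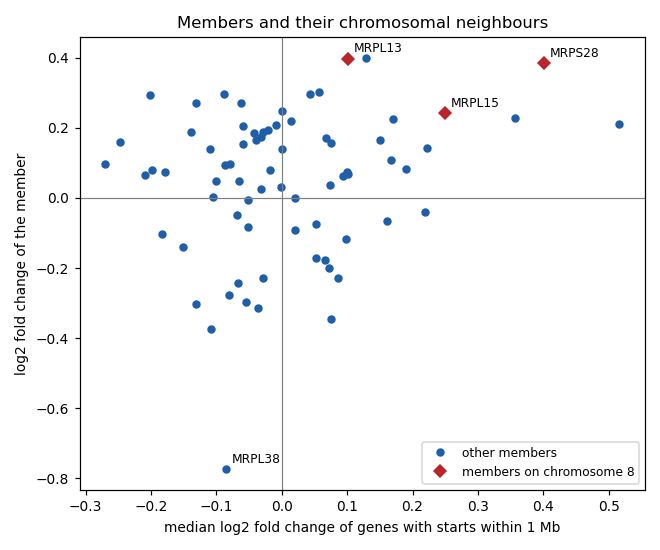
Log2 fold change of each member (vertical axis) against the median log2 fold change of the genes whose starts lie within 1 Mb (horizontal axis), for 73 members; red diamonds are the 3 members on chromosome 8. The cloud has little slope (Pearson's r 0.21), and the 3 diamonds lie above 0 on both axes.

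Of 7 mitochondrial ribosomal proteins under other symbols none was called by edgeR or DESeq2. By edgeR 47.9% of all genes tested were called. At an unadjusted p under 0.05 there were 3 with edgeR, 1 higher and 2 lower, and 0 with DESeq2. With total counts 3 were called lower, and with the offsets for GC content and length 2. DAP3, a GTP-binding protein of the small subunit, had 5254, 5016 and 5195 counts in OV3/SCR and 4568, 4815 and 5000 in OV3/COX1KD, with a log2 fold change of -0.073 (edgeR FDR 0.056). The others had log2 fold changes of 0.11 (MRP63), 0.011 (GADD45GIP1), 0.011 (PTCD3), 0.010 (ICT1), -0.062 (AURKAIP1) and -0.099 (CHCHD1).

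Genes that build and serve the ribosome were mixed. Of 26 assembly factors 4 were called higher and 8 lower, with a median log2 fold change of -0.062. That is 46.2% called, near the 47.9% of all genes tested. METTL15, a methyltransferase of the small-subunit RNA, rose by 0.41 (SE 0.055), and MTG1, a GTPase of large-subunit assembly, fell by 0.53 on the log2 scale (SE 0.081). Of 16 translation factors 6 were called higher by edgeR and none lower, with 1 lower at an unadjusted p under 0.05. The called share was 37.5%, below that of all genes tested. With DESeq2 the calls were 5 and 0. Their median was 0.043, and -0.035 with total counts. MTFMT, which formylates the initiator methionine, had 535, 480 and 498 counts against 635, 723 and 754, a log2 fold change of 0.51 (SE 0.062, edgeR FDR 6.4e-07). Of 19 tested enzymes that charge mitochondrial tRNAs 8 were higher and 4 lower (median 0.087), while DESeq2 called 4 and 3, total counts 4 and 4 (median 0.0091), and the offsets 5 and 4. With edgeR and TMM 63.2% of these enzymes were called, beside 47.9% of all genes tested. PARS2, for proline, had a log2 fold change of 0.46 (SE 0.098) and VARS2, for valine, one of -0.58 (SE 0.061).

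Upstream, 13 genes of mitochondrial transcription and its regulators held 1 called rise and 5 called falls. That is 46.2% called, near the 47.9% of all genes tested. With DESeq2 there were 0 called rises and 3 called falls, and with total counts 0 and 7. TFAM, which packs mitochondrial DNA, had a log2 fold change of 0.12 (SE 0.035, edgeR FDR 0.0068), which was not called with RLE size factors, total counts or DESeq2. PPARGC1A, the coactivator PGC-1alpha known for raising mitochondrial gene expression, had 435, 409 and 416 counts in OV3/SCR and 154, 149 and 141 in OV3/COX1KD. Its level was 36.1% of control, a log2 fold change of -1.47 (SE 0.081, edgeR FDR 7.0e-12).

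The messages that mitochondrial ribosomes translate were lower. Of 12 protein genes of mitochondrial DNA tested, 10 were called lower by edgeR and none higher, with a median log2 fold change of -0.27, and none was higher at an unadjusted p under 0.05. The called share was 83.3%, beside 47.9% of all genes tested and 63.6% of those of at least 4 on the mean log2 CPM scale. With DESeq2 5 were called lower and 0 higher, and with total counts 12 were lower. MT-ND5, a subunit of complex I, had 113195, 125866 and 117565 counts in OV3/SCR and 85083, 91817 and 87536 in OV3/COX1KD, a log2 fold change of -0.40 (SE 0.041, edgeR FDR 7.5e-08). Together they took 6.82%, 7.73% and 7.60% of counts in OV3/SCR and 5.92%, 6.68% and 5.53% in OV3/COX1KD, which do not overlap. Scaled by TMM the shares were 6.59%, 7.55% and 7.43% against 6.11%, 6.84% and 5.68%, which overlap, and of the 12 genes 4 were separated between conditions, all lower in OV3/COX1KD. The row named MT-ATP8 is annotated on chromosome 2, had 1 to 7 counts and was not tested.

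For reference, 2 other large sets of nuclear genes were counted in the same fit. Of 80 cytosolic ribosomal proteins, 75 were called higher and 2 lower, with a median log2 fold change of 0.43. Nuclear-encoded subunits of the respiratory chain and ATP synthase were picked by symbol. Of these 78 genes, 58 were higher and 1 lower, with a median of 0.22. Among them were ATP5S, ATP5SL and COX7A2L, which were not checked to be subunits. With TMM 96.2% and 75.6% of the 2 sets were called, beside 50.7% of the members and 47.9% of all genes tested. With total counts 73 cytosolic ribosomal proteins were higher and 2 lower (median 0.36). The nuclear-encoded subunits then had 40 higher and 4 lower (median 0.14), and the members 15 and 17 (median 0.0016). The differences between these sets were not tested.

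**Figure D5:**
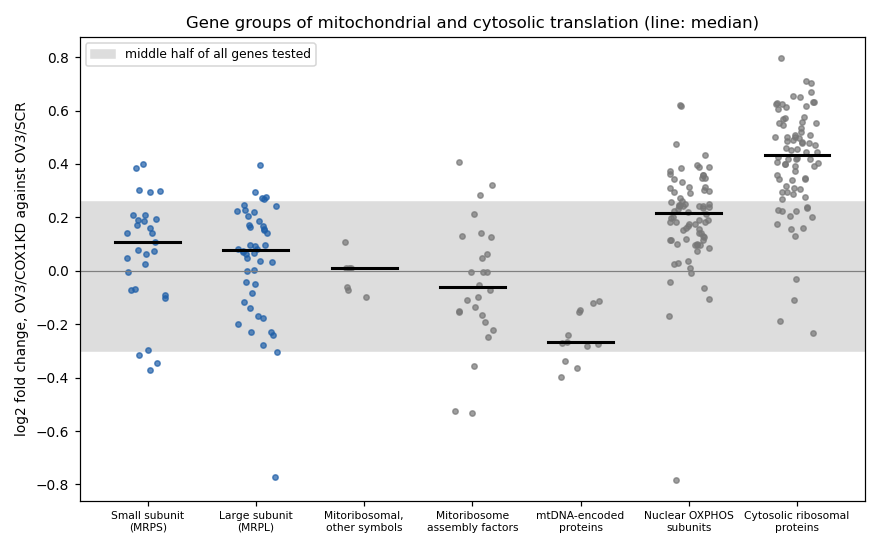
Log2 fold change of OV3/COX1KD against OV3/SCR (vertical axis) for the genes tested in 7 groups, 1 point per gene, with black lines at the medians and a grey band from the lower to the upper quartile of all genes tested. The members' medians are 0.11 (small subunit) and 0.076 (large subunit), against 0.43 for cytosolic ribosomal proteins, 0.22 for nuclear-encoded respiratory subunits and -0.27 for proteins of mitochondrial DNA.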

How the data were processed

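RNA of 6 libraries, 3 OV3/SCR and 3 OV3/COX1KD, was sequenced after TruSeq preparation. The authors aligned reads to hg19 (TopHat2 2.0 per the submitters' processing notes) and used HTSeq to count reads on each gene. The deposited values are these raw counts, not normalised. The gene annotation and the strand setting are not given in the sources used here.

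The test was edgeR 4.0.16 in R 4.3.3, with TMM scaling, filterByExpr (17309 of 34811 rows kept), and glmQLFit and glmQLFTest on condition alone. P-values were adjusted by Benjamini-Hochberg over all rows kept, and calls were made at an FDR under 0.01. A standard error is the size of the log2 fold change divided by the square root of F. CPM values are scaled by TMM. Pairs of libraries of 1 condition differed by more than sampling noise (chi-square per degree of freedom 1.82 to 6.28), so none was a copy. The largest values, 4.81 and 6.28, were those of OV3/COX1KD replicate 2 against replicates 1 and 3, which differed from each other by 1.89. Over the members alone these 3 values were 1.83, 2.17 and 1.3. The biological coefficient of variation was 3.21% (common dispersion 0.00103).

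The alternatives were RLE size factors, total counts, no filter, a minimum of 10 counts per library, a DESeq2 1.42.0 fit, a replicate block, offsets for GC content and length with and without the block, and leaving out each library. Coordinates, lengths and exon overlaps came from GENCODE 44 lifted to GRCh37 (33556 rows matched; MRPL45 and MRPS21 did not), with lengths of the canonical transcript, and start regions from RefSeq (GRCh38.p14). TPM were computed from the counts and these lengths. In simulated counts of 17005 genes for this comparison, 144 of 195 changed genes were recovered with 4 false calls. Far fewer genes were changed there than the 8293 of 17309 called in the data, so these rates need not hold here. They do not show how well changes as small as those of most members are recovered.

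Members and gene lists were chosen with earlier results of these data known. Named members were the 10 largest called rises and falls, those on chromosome 8, the MRPS18 paralogs, the 3 highest and lowest by level and those not tested, and for each related list its largest called rise and fall. MRPS11, MRPL42, MRPL53 and genes sharing exons with members were named after their values were seen.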

Additional observations from a re-analysis of the deposited data

How the results depend on the processing

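The number of members called, 38 with TMM, was 28 to 45 over the fits that left out 1 library each, lowest without OV3/SCR replicate 2 and highest without OV3/COX1KD replicate 2, with 19 to 33 higher and 8 to 12 lower. DESeq2 called 31. The numbers of called members, of those in each subunit and of those beyond 0.5 otherwise stayed within 1.5 times the count with TMM, as did the sign and the call of PTGS1, except that total counts gave 15 higher and 17 lower and a median log2 fold change of 0.0016. Total counts moved the median of all genes tested from -0.0087 to -0.087. The members' median of 0.080 was 0.10 with no filter, 0.062 with at least 10 counts in every library, 0.059 with offsets for GC content and length, 0.059 with these offsets and the replicate block, and 0.081 to 0.11 when 1 library was left out, for which the cause was not tested. The offsets gave 22 higher and 16 lower, so that 57.9% of the calls were rises, and 59% with the block. Over all genes tested, rises were 4278 of 8603 calls with the offsets and 4352 of 8772 with the block. The sign of MRPL3, which was not called, turned to -0.017 with total counts, -0.024 with the offsets and -0.024 with the offsets and the block. That of MRPS12, not called either, turned to 0.016 with no filter, and ranged from -0.018 to 0.0051 when 1 library was left out, above 0 without OV3/COX1KD replicate 2 (0.0032) or 3 (0.0051). The labels speak of replicate pairs without saying what a number marks, and same-numbered libraries did not deviate together (correlations of -0.0082, 0.046 and 0.027). With the replicate number as a block 37 members were called, 26 higher and 11 lower, and the only call lost was MRPL22. Each condition is 1 clone, so the errors cover passages of these clones and not other clones. MRPL30 had too few counts to be tested, and the standard error of MRPS24 was 0.22, so that a change within the quartiles of the family was not detectable there at this depth.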
